A study of Mus musculus with 2 samples.

Results

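miR-204 and miR-211, a pair of miRNAs with the same seed, were measured in Müller glia (MG), which span and support the retina, after deletion of Dicer1 and in wild-type MG. They are 2 of the 566 mouse probes of the panel and were found by their names, mmu-miR-204 and mmu-miR-211. The pair was chosen by its counts in these libraries, since miR-204 had the highest of all and the normalized counts of the 2 differed in opposite directions, so their levels and ratios are given as descriptions, with no test. The Dicer-CKO_MG library held tdTomato+ cells of adult Rlbp1-CreER:tdTomato:Dicerf/f mice, pooled from 26 retinas. The wild-type library held tdTomato+ cells of adult Rlbp1-CreER:tdTomato mice, pooled from 40 retinas (a protocol field of that sample gives 26). Mice of both groups carried the Cre and the reporter and received tamoxifen at 75 mg/kg from postnatal day 11 to 14. The Rlbp1 promoter that drives the Cre is known to be active in some cells of the retinal pigment epithelium as well as in MG. There was 1 pooled library per group, so no difference between the groups has a replicate check in these counts. The study also lists RT-qPCR primers for miR-204 and reports that every miRNA tested by RT-qPCR declined. That measurement too came from pools of 26 Dicer-CKO_MG and 40 wild-type retinas. Dicer1 itself has no probe, and the study describes its deletion as incomplete. The panel holds no mRNA marker of MG, so the label of the cells could not be checked independently in these counts. The study itself checked the purity of the tdTomato+ cells by sorting them again. It also reports glial markers in tdTomato+ cells of retinal sections and glial genes in RNA-Seq of sorted cells.

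Dicer1 encodes the enzyme that cuts the hairpin of a miRNA precursor into the mature miRNA. A mature miRNA finds its target mRNAs mainly through its seed near the 5′ end, so miRNAs with the same seed are predicted to share most targets. miR-204 lies in an intron of Trpm3, which encodes a cation channel, and is known as an abundant miRNA of the pigment epithelium, the ciliary body and MG. In medaka fish it is needed for the formation of lens and retina and represses the transcription factor Meis2. miR-211 lies in an intron of Trpm1, whose channel carries the light response of ON bipolar cells, and is made in human melanocytes together with TRPM1 under control of the transcription factor MITF.

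The 2 mature sequences are shown because the comparison of the probes rests on how little they differ. In the RefSeq annotation of GRCm38.p6, miR-204-5p lies on the plus strand at chr19:22750610-22750631 and miR-211-5p on the plus strand at chr7:64205831-64205852. Capitals mark the seed, bases 2 to 8 from the 5′ end.
miR-204-5p: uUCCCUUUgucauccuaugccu
miR-211-5p: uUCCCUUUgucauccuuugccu
Of the 22 bases 21 were identical, and the difference was A17U, counted from the 5′ end with the base of miR-204-5p first. It lies outside the seed. The probe names give no arm and were taken as the 5p arm, for which these miRNAs are known. The 3p arms have no probe with a name of their own on the panel. They come from the other side of each hairpin and have seeds unlike that of the 5p arms and unlike each other.
miR-204-3p: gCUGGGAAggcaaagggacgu
miR-211-3p: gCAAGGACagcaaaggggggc
Mir204 (chr19:22750605-22750672) begins 612808 bp from the start of Trpm3 (chr19:22137797-22995410), and Mir211 (chr7:64205806-64205911) begins 51971 bp from the start of Trpm1 (chr7:64153835-64269772). Each miRNA gene has the strand of its host. Of 1679 mature mouse miRNAs in the RefSeq table, 3 had this seed, and the third, miR-7670-3p, is not among the probes.
miR-7670-3p: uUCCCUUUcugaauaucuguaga
Of the 566 mouse probes, 442 matched a mature RefSeq sequence by name, and only those of miR-204 and miR-211 had the seed among them. The closest other matched probe, miR-412, stood 8 edits from miR-204-5p.

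In the assay, each miRNA is joined to a tag, hybridized in solution to a barcoded probe and counted without amplification. Raw counts are thus numbers of barcodes. The Dicer-CKO_MG library had 139812 and the wild-type library 769736 barcodes in all. The mean of the negative controls (20.4 in Dicer-CKO_MG, 38.6 in wild-type) was taken off each count. The remainder was scaled by the positive controls and then by 4 housekeeping mRNAs, and is called the normalized count. The limit of detection was set 2 SD above the mean negative control and corresponded to 53.2 barcodes in Dicer-CKO_MG and 71.7 barcodes in wild-type. The intervals given here are exact 95% intervals of the barcode counts, cover counting error only, and are too narrow for counts near background.

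miR-204 was the most abundant miRNA of both libraries, and its level was far lower in Dicer-CKO_MG. Its probe gave 6906 barcodes (95% interval 6744 to 7071) in Dicer-CKO_MG, against 247414 (246440 to 248391) in wild-type MG. The normalized counts were 18866 in Dicer-CKO_MG and 177083 in wild-type MG, so that 10.7% of the wild-type level was measured after Dicer1 deletion (10.4 to 10.9%), a log2 ratio of -3.23. On this housekeeping scale 52 of the 174 miRNAs detected in either library, or 29.9%, were called lower in Dicer-CKO_MG, which here means at least 2-fold with the counting interval on 1 side of equality. The values of miR-204 were used to choose it and nothing is read from its place among these. The median miRNA measured in both libraries stood at 46.1% of wild-type, and miR-204 had the second lowest ratio of the 74. These leave out the 97 miRNAs detected in wild-type MG only, of which miR-1927 stood at 9.73% of wild-type at most.

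miR-204 made up 15.9% (15.6 to 16.3%) of the count above background in Dicer-CKO_MG, against 36.6% (36.5 to 36.7%) in wild-type MG, taken over the 174 miRNAs. These shares need no factor between the libraries. In Dicer-CKO_MG, miR-204 exceeded the second miRNA, miR-125b-5p, by 1.67-fold and the third, miR-9, by 1.68-fold. In wild-type MG it exceeded the same miRNAs by 2.61-fold and 3.79-fold, and the next 6 miRNAs had to be summed to pass it. Both of these other miRNAs are abundant in neural tissue, and miR-9 acts in neural progenitors. The 174 miRNAs, and the 6 summed above, include miR-720, which is a tRNA fragment. Each probe may capture its miRNA with its own efficiency, so that distances between miRNAs are approximate.

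miR-204 alone held a large part of the difference in the whole miRNA count. Over the 174 miRNAs the normalized counts added up to 118433 in Dicer-CKO_MG and 483686 in wild-type MG. Of the difference, 43.3% was that of miR-204 alone, and 38.0% when the counts were not scaled. With miR-204 left out, the sum stood at 32.5% of wild-type, against 24.5% with it. A scale set by the summed miRNA count therefore differed by 1.33-fold for every other miRNA, depending on whether miR-204 was in the sum.

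**Figure D1:**
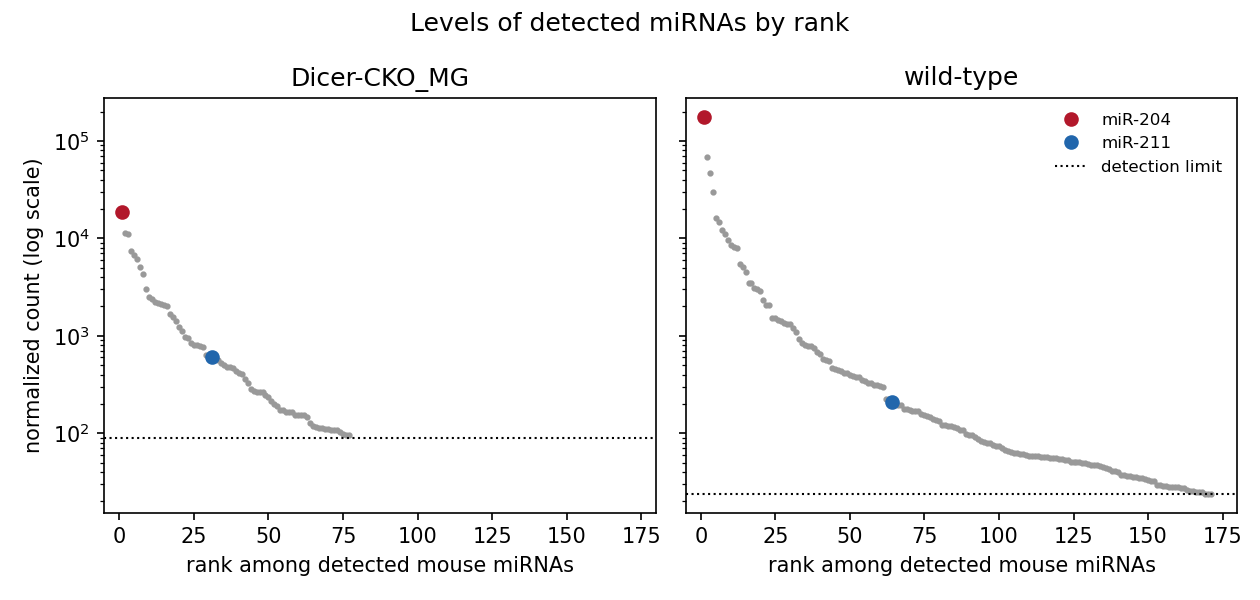
Normalized counts (log scale) of the mouse miRNAs detected in Dicer-CKO_MG (left, 77 miRNAs) and in wild-type MG (right, 171 miRNAs), ordered by rank, with the detection limit of each library as a dotted line. miR-204 holds rank 1 in both panels, and miR-211 holds rank 31 of 77 in Dicer-CKO_MG and rank 64 of 171 in wild-type MG.

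miR-211 was scarce in MG of both groups, with a lower raw count and a higher normalized count in Dicer-CKO_MG. Its probe gave 239 barcodes (210 to 271) in Dicer-CKO_MG, against 329 (294 to 367) in wild-type MG. Both counts were well above the highest negative control, at 4.05 times its count in Dicer-CKO_MG and 5.31 times in wild-type MG. The normalized counts were 599 in Dicer-CKO_MG and 208 in wild-type MG, a 2.88-fold higher level in Dicer-CKO_MG (2.43 to 3.41), a log2 ratio of 1.53. On the same scale 21 of the 174 detected miRNAs, or 12.1%, were called higher, miR-211 among them by the values it was chosen for. It had the 14th highest ratio of the 74 measured. miR-211 made up 0.506% (0.444 to 0.574%) of the count above background in Dicer-CKO_MG, against 0.0430% (0.0385 to 0.0479%) in wild-type MG.

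The housekeeping scale, which raised the counts of Dicer-CKO_MG, also limited what could be compared. On it the detection limit of Dicer-CKO_MG was a normalized count of 90.0, against 23.6 in wild-type MG. In barcodes the limit of Dicer-CKO_MG was the lower one (53.2 against 71.7). On the housekeeping scale miR-211 would have been unmeasured below 43.3% of its wild-type level. At the ratio of miR-204 its raw count would have been 28.5, under the limit of 53.2. A miRNA of this level is thus measured in both libraries only where, on that scale, it was less than 2.31-fold lower in Dicer-CKO_MG, equal or higher. In pooled cells, fewer cells with a miRNA and less of it per cell cannot be told apart.

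**Figure D2:**
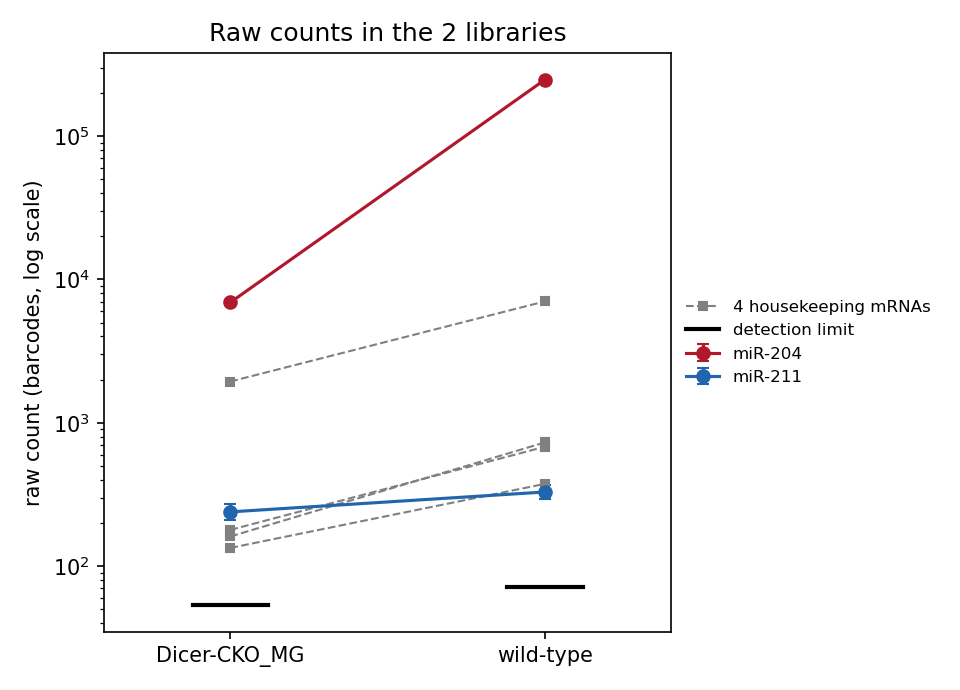
Raw counts (barcodes, log scale) of miR-204 and miR-211 in Dicer-CKO_MG (left) and wild-type MG (right), with exact 95% Poisson intervals as error bars, which for miR-204 are smaller than its points, beside the 4 housekeeping mRNAs and the detection limits. miR-204 lies at 6906 in Dicer-CKO_MG and 247414 in wild-type MG, whereas miR-211 lies at 239 in Dicer-CKO_MG and 329 in wild-type MG.

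Whether miR-211 was higher depended on the scale, and the lower level of miR-204 did not change direction on any of the scales tried. All 4 housekeeping mRNAs had lower raw counts in Dicer-CKO_MG, and were 1939 in Dicer-CKO_MG against 7024 in wild-type MG for Actb, which encodes beta-actin. Gapdh, of glycolysis, had 161 barcodes in Dicer-CKO_MG against 730 in wild-type MG. Rpl19, of the ribosome, had 179 in Dicer-CKO_MG against 681 in wild-type MG, and B2m, beta-2 microglobulin, had 134 in Dicer-CKO_MG against 375 in wild-type MG. Together they raised Dicer-CKO_MG counts 3.83-fold relative to wild-type. The positive controls, which are added in fixed amounts, gave a factor of 0.705. On that scale miR-204 stood at 1.96% of wild-type (1.92 to 2.01%) and miR-211 at 53.1% (44.8 to 62.9%), so both were lower. There 137 miRNAs were called lower (78.7%) and 2 higher (1.15%), and miR-211 was in neither set. With the ligation controls in place of the housekeeping genes miR-204 stood at 2.03% and miR-211 at 55.0%. With no scaling miR-204 stood at 2.78% and miR-211 at 75.3% (63.5 to 89.2%).

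Scales set by the miRNAs themselves placed miR-211 further above wild-type. Scaled to the sum of the detected miRNAs, miR-204 stood at 43.5% (42.5 to 44.6%) and miR-211 was 11.8-fold higher in Dicer-CKO_MG (9.92 to 13.9). On that scale 5 miRNAs were called lower (2.87%), and 37 higher (21.3%). With miR-204 left out of the sum, miR-204 stood at 32.8% and miR-211 was 8.87-fold higher, and with the geometric mean of the 100 highest miRNAs the values were 24.3% and 6.57-fold. The 2 members differed in opposite directions for every factor between 1.33, at which miR-211 would be equal, and 35.9, at which miR-204 would be equal. Each housekeeping mRNA taken alone lay in that range, with factors of 2.96 for B2m, 3.64 for Actb, 4.05 for Rpl19 and 4.92 for Gapdh. The factors of the positive and ligation controls lay below it.

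**Figure D3:**
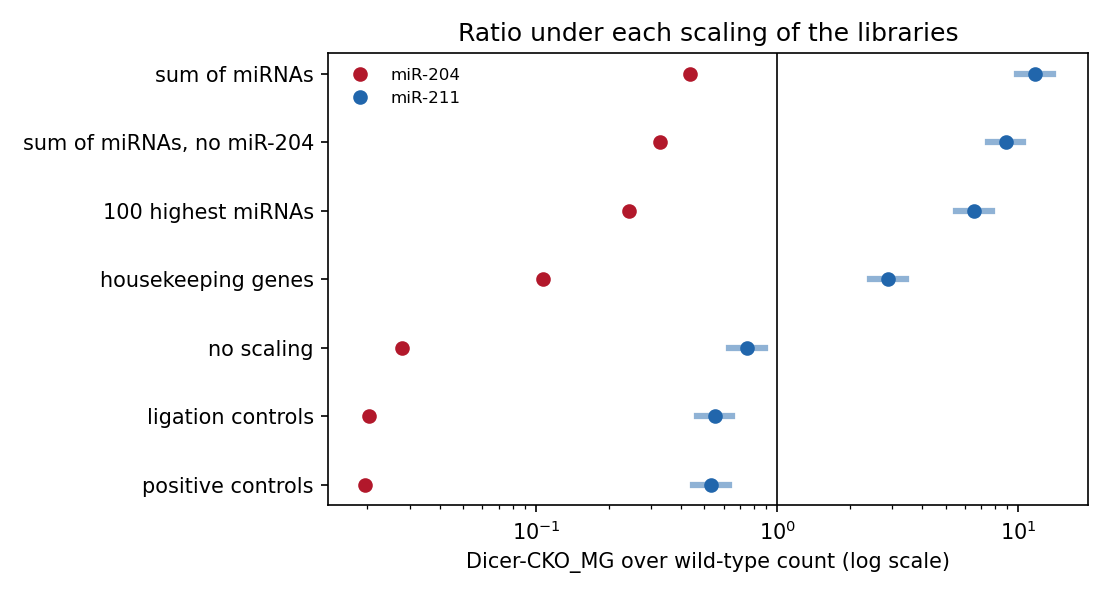
Counts in Dicer-CKO_MG divided by those in wild-type MG (log scale) for miR-204 and miR-211 under 7 scalings of the libraries, with exact 95% counting intervals as bars and equality as a vertical line. miR-204 lies between 0.0196 and 0.435, left of equality in every row, and miR-211 lies between 0.531 and 11.8, left of equality with no scaling, ligation controls and positive controls.

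The ratio of the 2 members within a library carries no scaling factor. There were 31.8 barcodes of miR-211 for every 1000 of miR-204 in Dicer-CKO_MG (27.8 to 36.1), against 1.17 in wild-type MG (1.05 to 1.31). The ratio was thus 27.0-fold higher in Dicer-CKO_MG (22.8 to 32.1). miR-211 made up 3.08% of the barcodes above background of the pair in Dicer-CKO_MG and 0.117% in wild-type MG. Summed over both, 10.98% of the wild-type level of the shared seed was measured on the housekeeping scale, and nearly all of it was miR-204.

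Because the 2 sequences differ by 1 base, their probes might read each other in part. The barcodes of miR-211 above background were equal to 3.18% of those of miR-204 in Dicer-CKO_MG, against 0.117% in wild-type MG. What share of miR-204 the probe of miR-211 reads was not measured. Had all wild-type barcodes of miR-211 been read from miR-204, the same share would give 8.08 barcodes above background in Dicer-CKO_MG. The count there was 218.6. The part of such reading in the count of miR-211 was not tested in either library.

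Other probes for miRNAs that differ by 1 base (a substitution or an added base) outside the seed served as a comparison. In 8 other such pairs, whose members were all detected in both libraries, the scarcer member of wild-type MG had between 1.08% and 68.9% of the count of the other there. The ratio in Dicer-CKO_MG was 0.563 to 2.79 times that in wild-type MG in those pairs, against 27.0-fold for miR-211 and miR-204. The pair nearest to them was miR-181c and miR-181a, with 3.02% in Dicer-CKO_MG and 1.08% in wild-type MG (2.79-fold). For miR-29c and miR-29a the values were 62.4% in Dicer-CKO_MG and 24.6% in wild-type MG, and for miR-100 and miR-99a 23.0% in Dicer-CKO_MG and 28.4% in wild-type MG. The pairs overlap, since let-7a and let-7c each stand in more than 1, and the pair of miR-204 and miR-211 was chosen for its difference, so no test was made.

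**Figure D4:**
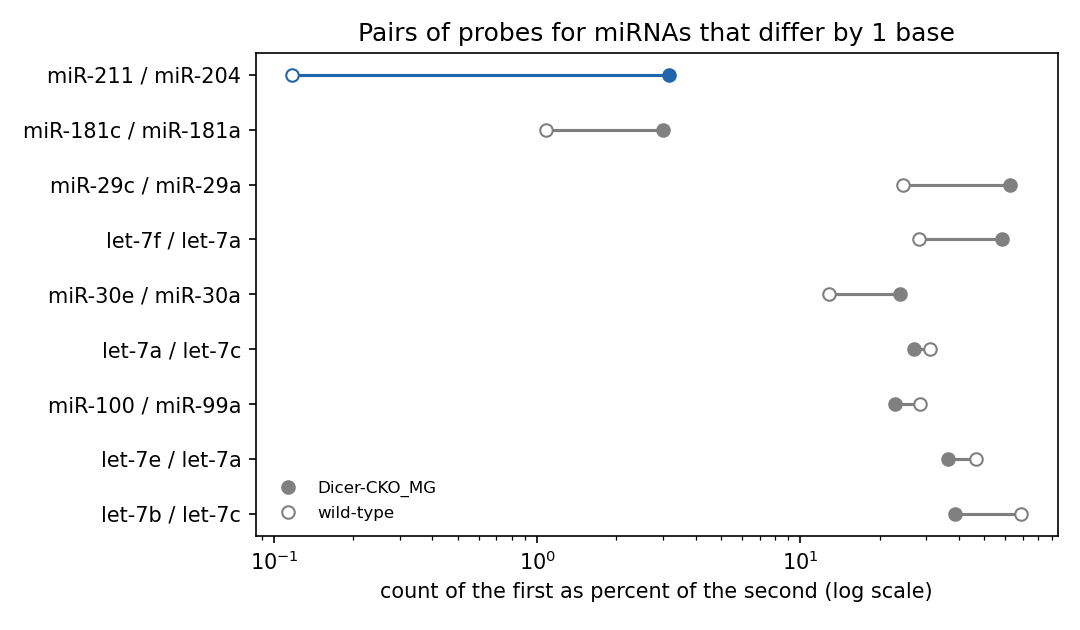
Count above background of the scarcer miRNA of a pair as a percent of the other (log scale), for 9 pairs of miRNAs that differ by 1 base outside the seed, in Dicer-CKO_MG (filled) and wild-type MG (open). miR-211 stands at 3.18% of miR-204 in Dicer-CKO_MG and at 0.117% in wild-type MG, the longest distance shown.

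The miRNAs whose ratio was most like that of miR-204 were, by distance in log2 ratio over the 74 miRNAs measured in both libraries, miR-99a, miR-125a-5p, miR-100, miR-1960 and miR-125b-5p. They stood at 11.5%, 11.7%, 9.32%, 13.4% and 16.6% of wild-type. The intervals of miR-99a (10.6 to 12.6%), miR-125a-5p (10.01 to 13.7%), miR-100 (7.82 to 11.03%) and miR-1960 (10.2 to 17.4%) overlapped that of miR-204, whereas that of miR-125b-5p (16.1 to 17.1%) did not. miR-99a and miR-100 differ by 1 base, and miR-125a-5p and miR-125b-5p share a seed. For miR-211 the nearest were miR-101b, miR-146a, miR-202-5p, miR-129-3p and miR-132, with ratios of 2.78, 2.78, 3.23, 3.23 and 2.27. miR-146a is known from immune cells, and miR-129-3p and miR-132 from neurons. All 5 were lower in Dicer-CKO_MG on the positive-control scale, at 0.418 to 0.595 of wild-type. With 2 libraries each pattern is a single ratio, and likeness in it describes these libraries only.

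By level, miR-211 in Dicer-CKO_MG stood next to let-7e (610) and miR-129-3p (635) above and miR-376a (596) and miR-30d (563) below, on the normalized scale. In wild-type MG its neighbours were miR-21 (222) and miR-183 (225) above and the joint probe of miR-20a and miR-20b (199) and miR-129-3p (196) below. Within 1.5-fold of its wild-type level lay 18 other miRNAs. Of these, 11 were not detected in Dicer-CKO_MG and 7 were measured in both libraries. The 4 of these that were above wild-type on the housekeeping scale were miR-1186 (1.84-fold), the neuronal miR-129-3p (3.23-fold) and the photoreceptor miRNAs miR-183 (4.99-fold) and miR-96 (12.1-fold). The 3 below were miR-30e (0.650), miR-21 (0.735) and miR-2141 (0.868). The 11 not detected in Dicer-CKO_MG stood at 0.293 to 0.647 of wild-type at most on that scale. Thus 3 of the 18, all among the 7 measured, had a higher ratio than miR-211.

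**Figure D5:**
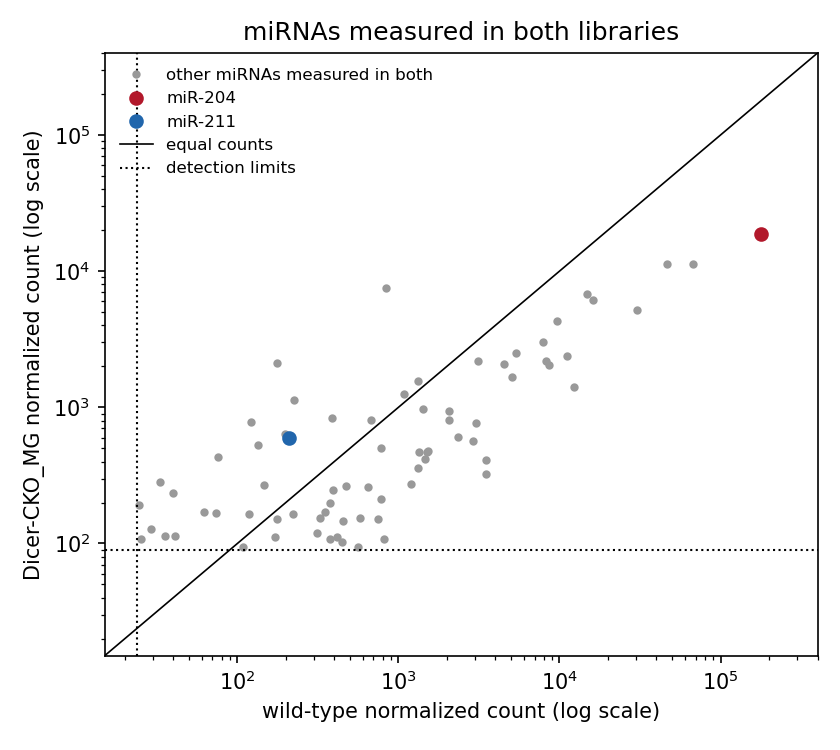
Normalized counts (log scales) of the 74 miRNAs measured in both libraries, Dicer-CKO_MG on the vertical and wild-type MG on the horizontal axis, with equality as a solid line and the detection limits as dotted lines (90.0 in Dicer-CKO_MG, 23.6 in wild-type MG). miR-204 lies below the line at the far right (18866 in Dicer-CKO_MG, 177083 in wild-type MG), and miR-211 lies above it (599 in Dicer-CKO_MG, 208 in wild-type MG).

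On the housekeeping scale the summed counts of several other cell types were, like miR-211, higher in Dicer-CKO_MG. Of 7 miRNAs typical of retinal neurons 3 were detected in Dicer-CKO_MG and 4 in wild-type MG, and their normalized counts summed to 8337 in Dicer-CKO_MG and 1186 in wild-type MG, with miR-128, miR-129-5p and miR-138 at background in both. Of 3 photoreceptor miRNAs 2 were detected in each library, with sums of 3315 in Dicer-CKO_MG against 402 in wild-type MG, and miR-182 was at background. Of 6 immune cell miRNAs 4 were detected in each library, with sums of 1346 in Dicer-CKO_MG against 297 in wild-type MG, and miR-155 and miR-223 were at background. Of 4 miRNAs of blood vessels 1, miR-126-3p, was detected, with sums over the list of 865 in Dicer-CKO_MG against 139 in wild-type MG. None of 3 erythroid miRNAs (miR-144, miR-451 and miR-486) was detected in either library. On the positive-control scale the sums stood at 1.30 times wild-type for neurons, 1.52 for photoreceptors, 1.14 for blood vessels and 0.836 for immune cells, and the members of a list differed in direction. Among the neuronal miRNAs miR-124, which held most of the sum, stood at 1.65 times wild-type on that scale, against 0.595 for miR-129-3p and 0.418 for miR-132, and miR-137 was detected in wild-type MG only. Of the photoreceptor miRNAs miR-96 stood at 2.22 and miR-183 at 0.919 times wild-type. Of the immune cell miRNAs miR-142-3p stood at 1.43 and miR-150 at 1.05, and miR-142-5p at 0.729 and miR-146a at 0.511. The wild-type count of miR-142-3p, 73 barcodes, lay barely above the detection limit of 71.7. miR-184, known from pigment epithelium and other epithelia of the eye, gave 29 barcodes in Dicer-CKO_MG, at background, and 112 barcodes in wild-type MG, where it was detected. On the housekeeping scale the wild-type counts of miR-184 (52.5) and miR-137 (28.2) lay below the Dicer-CKO_MG detection limit of 90.0. No direction could therefore be read for these miRNAs on that scale. No miRNA of ON bipolar cells or of melanocytes was listed. All 5 miRNAs listed for MG, miR-204 among them, were detected in both libraries and summed to 47926 in Dicer-CKO_MG, against 334301 in wild-type MG, but that list was drawn up from these same data. The part of these cells in the counts of miR-211 and miR-204 was not tested.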

How the data were processed

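miRNAs were measured with a NanoString nCounter panel in 1 pooled library per group, grouped by the genotype labels. The deposited files hold, for each probe, the count of its barcodes. A second deposited table gives the authors' normalized values, treated as a score because they are whole numbers. Per the methods of the study these were normalized in nSolver to 4 housekeeping genes, 8 negative and 6 positive controls. The order of steps is not given in the sources used here. All values were computed from the raw files unless stated, and probes were matched between the libraries by accession, as 9 joint probes are written differently. The mean negative control was subtracted from each count, and the factors of the positive controls and the housekeeping genes were applied, both from geometric means. The counts obtained were 1.14 times the deposited ones in both libraries. Intervals of ratios came from the exact binomial interval of the raw counts, and that of the ratio of ratios from the exact conditional interval, each carried to the background-subtracted value.

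With 1 library per group no test was possible. The 2 members, the lists and the rules were chosen with earlier results of these data known. Named were the members, the 5 miRNAs nearest to each in log2 ratio, the 2 next to each in rank, the probes closest in sequence and the marker lists. The step that calls miRNAs was tested on simulated 4-fold differences, scored only for miRNAs more abundant in wild-type MG than miR-211. It was thus not tested at the level of miR-211 or at the 2-fold size rule. Sequences and positions came from RefSeq tables of GRCm38.p6. The comparison of pairs that differ by 1 base and of miRNAs near miR-211 in level was chosen after the data had been seen. Python 3.11.15, SciPy 1.17.1 and pandas 2.3.3 were used.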

Additional observations from a re-analysis of the deposited data

How the results depend on the processing

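The direction of miR-204 was the same under all 15 alternatives. Its ratio of Dicer-CKO_MG over wild-type was 0.107 and became 0.102 with no background subtraction, 0.125 and 0.132 with the mean plus 2 SD and the highest negative control subtracted, 0.0196 with positive controls only, 0.0203 with ligation controls, 0.0278 unscaled, 0.435 on the sum of detected miRNAs, 0.328 on that sum without miR-204, 0.243 on the 100 highest miRNAs, 0.103 with arithmetic means, 0.0980 without Gapdh and 0.116 without B2m. The ratio of miR-211, 2.88, turned to 0.531 with positive controls only, 0.550 with ligation controls and 0.753 unscaled, and became 11.8 on the sum, 8.87 on the sum without miR-204 and 6.57 on the 100 highest miRNAs. Under the other 9 alternatives, among them leaving out each housekeeping gene and the deposited values, it stayed within its counting interval. Which scale holds was not tested. Per the methods of the study, about the same amount of total RNA was submitted for each sample. The 27.0-fold difference of the ratio of miR-211 to miR-204 lay between 24.4 and 27.0 under its 4 alternatives.

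The share of miR-204 in Dicer-CKO_MG was 14.8% with no background subtraction, 17.2% and 17.4% with the mean plus 2 SD and the highest negative control subtracted, 13.1% of raw counts over all mouse probes and 16.9% without miR-720, and in wild-type 36.3%, 36.9%, 36.8%, 35.6% and 37.8%, and 36.5% over all mouse probes. With miR-204 out of the total, miR-211 made up 0.602% in Dicer-CKO_MG, against 0.0678% in wild-type MG, and in wild-type MG 0.0482% with no background subtraction and 0.0384% with the mean plus 2 SD subtracted. Of the 174 miRNAs, 52 were called lower and 21 higher, and 137 and 2 with positive controls only, 5 and 37 on the sum. Further, 19 were called lower and 13 higher at a 4-fold size rule, and 12 were called higher with detection above 100 counts. No paired analysis was possible because there was 1 library per group.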
